A study of Mus musculus with 4 samples.

Results

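Club cells are the secretory cells of the airway epithelium, and 10 genes that mark them or belong to the secretoglobin family were followed here in whole mouse lungs at embryonic day 16.5. The genes were taken by symbol, namely Scgb1a1, Scgb3a1, Scgb3a2, Scgb1c1, Cyp2f2, Upk3a, Cldn10, Aldh1a7, Cckar and Gabrp. All 10 were present among the 22556 genes of the table, and the 4 secretoglobins were the only rows of the table with a symbol starting with Scgb. Control embryos had the genotype Shh-Cre; Stk11F/+ and Shh-Stk11 embryos the genotype Shh-Cre; Stk11F/F, with 2 libraries each, without treatment. C57BL/6 is the strain in the labels, but the study describes its mice as mixed in background, so that a single inbred strain cannot be assumed. Both genotypes thus carried the Cre driver and at least 1 floxed allele of Stk11, a serine/threonine kinase and tumor suppressor. The driver acts in the endoderm from which the lung epithelium forms, whereas RNA was taken from the whole organ with its mesenchyme, vessels and blood. The labels gave neither litter nor sex. Values are FPKM, that is, fragments per kilobase of transcript scaled to the mapped reads of the library, and fold changes are on the log2(FPKM + 0.1) scale unless stated otherwise.

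Club cells arise from airway progenitors that receive Notch signals, while neighbouring progenitors become multiciliated cells. They secrete small proteins of the secretoglobin family into the airway fluid and metabolize foreign compounds through cytochrome P450 enzymes. Scgb1a1 encodes the club cell secretory protein and is the standard marker of mature club cells, whereas Scgb3a2 is transcribed early in developing airways. Upk3a, a uroplakin, marks a subset of club cells next to neuroendocrine bodies. Cyp2f2 is a P450 enzyme of club cells, Aldh1a7 an aldehyde dehydrogenase, Cldn10 a tight junction claudin, Cckar the cholecystokinin A receptor and Gabrp a subunit of the GABA-A receptor.

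The DNA before the start of 3 of these genes is shown because they stand for different outcomes below: Upk3a fell, Cyp2f2 had equal means in both genotypes and Scgb3a1 is a secretoglobin close to the detection limit. The 250 bases before the RefSeq start in build GRCm38.p6 are written 5′ to 3′ on the strand of the gene. They lie at chr15:85016891-85017140 (plus strand) for Upk3a, chr7:27119705-27119954 (plus strand) for Cyp2f2 and chr11:49663345-49663594 (plus strand) for Scgb3a1. Capitals mark matches, on either strand, to the NK2-type core CAAGTG, the forkhead pattern TGTTTNC, the C/EBP-type pattern TTNCNNAA or the cyclic AMP response element TGACGTCA, where N is any base.
Upk3a: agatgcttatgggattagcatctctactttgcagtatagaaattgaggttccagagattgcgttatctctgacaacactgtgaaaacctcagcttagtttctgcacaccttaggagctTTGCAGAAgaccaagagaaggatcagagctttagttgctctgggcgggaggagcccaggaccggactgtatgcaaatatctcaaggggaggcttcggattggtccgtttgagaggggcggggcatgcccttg
Cyp2f2: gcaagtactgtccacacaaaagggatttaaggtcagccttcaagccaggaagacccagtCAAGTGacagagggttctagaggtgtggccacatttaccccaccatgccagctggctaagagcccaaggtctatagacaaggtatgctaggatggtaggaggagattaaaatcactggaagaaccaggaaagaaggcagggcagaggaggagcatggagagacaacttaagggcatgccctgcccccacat
Scgb3a1: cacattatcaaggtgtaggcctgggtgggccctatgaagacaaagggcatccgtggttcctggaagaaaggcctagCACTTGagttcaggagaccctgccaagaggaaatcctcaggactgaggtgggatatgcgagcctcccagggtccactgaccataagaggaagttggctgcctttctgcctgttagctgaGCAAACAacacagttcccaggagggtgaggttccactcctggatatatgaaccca
The Upk3a window held a C/EBP-type match that began 132 bases before the start. The Cyp2f2 window held an NK2-type core at 191 bases, and the Scgb3a1 window an NK2-type core at 174 and a forkhead pattern at 55 bases before the start, both on the opposite strand. Such matches are common: among 32851 windows of the same length, 11.6% held the NK2-type core, 17.8% the forkhead pattern, 36.8% the C/EBP-type pattern and 1.55% the cyclic AMP response element. They are matches of letters, and no binding was measured. Windows for 7 of the 10 genes were in the RefSeq table, and none was used for Scgb1a1, Scgb3a2 and Cckar.

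Levels per length differed widely within the group. In Control lungs Scgb3a2 was highest at 615 ± 89.7 FPKM (SD, n = 2), followed by Scgb1a1 at 162 ± 84.0, Cldn10 at 143 ± 8.02, Aldh1a7 at 113 ± 15.0, Cyp2f2 at 65.8 ± 8.0, Cckar at 23.2 ± 2.67 and Upk3a at 8.53 ± 0.674 FPKM (SD, n = 2 each). Scgb1a1 did not differ beyond its spread from Cldn10 or from Aldh1a7 in this order. Scgb3a1 at 2.06 ± 1.84, Scgb1c1 at 1.46 ± 0.693 and Gabrp at 0.901 ± 0.00659 FPKM (SD, n = 2 each) were near the floor, and their order could not be read beyond the spread. In Shh-Stk11 lungs the order at the top changed, with Scgb1a1 highest at 392 ± 112 FPKM, ahead of Scgb3a2 at 236 ± 71.3 and Cldn10 at 192 ± 31.8 FPKM (SD, n = 2 each). The libraries of Scgb3a2 and Cldn10 overlapped there. The lower ranks were unchanged, with Aldh1a7 at 121 ± 12, Cyp2f2 at 65.8 ± 3.0, Cckar at 13.6 ± 0.10 and Upk3a at 2.97 ± 0.132 FPKM (SD, n = 2 each). The other cell types of the lung also contribute RNA to these libraries, and fewer cells of a type and less RNA per cell cannot be told apart.

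**Figure D1:**
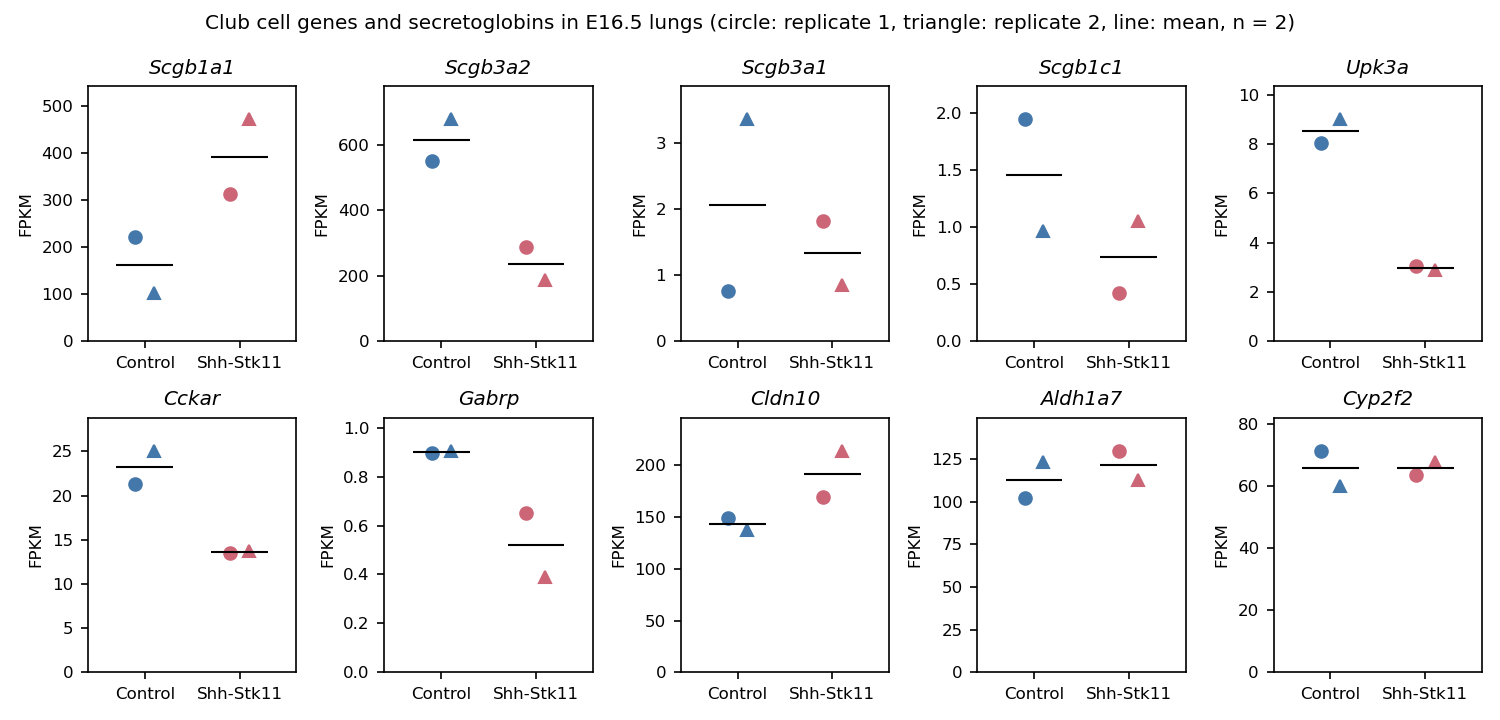
FPKM of the 10 genes (vertical axis from 0) in Control (blue) and Shh-Stk11 (red) libraries, with circles for replicate 1, triangles for replicate 2 and lines at the mean of n = 2. Both Shh-Stk11 values lay above both Control values for Scgb1a1 and Cldn10 and below them for Scgb3a2, Upk3a, Cckar and Gabrp, while the groups overlapped for the other 4 genes.

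Deletion was checked in Stk11 itself, which was at 44.0 and 45.5 FPKM in Control lungs, against 29.5 and 26.0 FPKM in Shh-Stk11 lungs. Its log2 fold change was -0.69 (limma adjusted p 0.0499), in RNA that also came from cells outside the epithelium. Steps in the low values gave a depth of 30.9 M to 38.1 M reads. Shh-Stk11 2 was the only library with Y-linked transcripts, for example Ddx3y at 23.5 FPKM against at most 0.0285 FPKM elsewhere, so that sex was not matched between the genotypes. Its part in the differences below was not tested. Values without this library are given for the 3 club cell genes that passed the test and for others such as Scgb1a1. The median absolute log2 difference between replicates, over all genes tested, was 0.18 for Control and 0.16 for Shh-Stk11.

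The genes did not share a direction. At an adjusted p below 0.05 in limma, 3 of the 10 genes fell in Shh-Stk11 lungs (Upk3a, Scgb3a2 and Cckar), against 1.29% of all 13770 genes tested, and 0 rose, against 0.98%. In either direction 2.27% of all genes passed. At an unadjusted p below 0.05 there were 5, the 3 genes above and the higher Scgb1a1 and Cldn10, against 15.2% of all genes. Both Shh-Stk11 libraries lay above both Controls for 2 genes, against 19.2% of all genes, and below them for 4 genes, against 27.6%, so that 6 of the 10 did not overlap, against 46.8% of all genes. The median log2 fold change was -0.54 over the 10 genes and -0.05 over all genes tested. These shares and medians describe a list that was put together with earlier results of the same libraries known.

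The secretoglobins that dominated the group differed in opposite directions between the genotypes, and of both only Scgb3a2 passed the test. Scgb1a1 was at 221 and 102 FPKM in Control lungs, against 312 and 471 FPKM in Shh-Stk11 lungs. The Shh-Stk11 values lay above both Controls, but the Controls differed 2.16-fold from each other. The log2 fold change was 1.35 (SE 0.375) and missed the threshold, with a limma adjusted p of 0.144 and a 95% interval from 0.45 to 2.25 before correction for the number of genes. It was 1.90 without Control 1 and 0.79 without Control 2, the lower of the Controls. Without Shh-Stk11 1 it was 1.65, and without Shh-Stk11 2, the library with Y-linked transcripts, 1.05. Scgb3a2 was at 552 and 679 FPKM in Control lungs, against 286 and 185 FPKM in Shh-Stk11 lungs. Here the groups were further apart than the replicates, which differed 1.23-fold in Control and 1.54-fold in Shh-Stk11 lungs. Scgb3a2 fell by 1.41 on the log2 scale (SE 0.242, limma adjusted p 0.0422), a 2.61-fold lower mean. The call was lost without Control 1 (log2 fold change -1.56, limma adjusted p 0.109), without Control 2 (-1.26 and 0.152) and without Shh-Stk11 2 (-1.10 and 0.0867), and it was kept without Shh-Stk11 1 (0.0188). Over all 15 alternatives the call was lost in 10, always with the same sign.

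A ratio of both genes within a library does not depend on how the library was scaled. Scgb3a2 exceeded Scgb1a1 by 2.49-fold in Control 1 and 6.63-fold in Control 2. The order in FPKM was turned in the Shh-Stk11 libraries, where Scgb1a1 exceeded Scgb3a2 by 1.09-fold in replicate 1 and 2.54-fold in replicate 2. FPKM divide reads by length, so this order rests on the lengths assumed for these short transcripts. In estimated reads, Scgb3a2 exceeded Scgb1a1 in Shh-Stk11 1 (5587 against 2566) and was below it in Shh-Stk11 2 (3898 against 4171). The log2 ratio of Scgb1a1 to Scgb3a2 averaged -2.02 ± 0.997 (SD, n = 2) in Control and 0.74 ± 0.863 (SD, n = 2) in Shh-Stk11 lungs. The difference of 2.76 was larger than the gap between replicates of either genotype, which was 1.41 in Control and 1.22 in Shh-Stk11 lungs. An exact two-sided permutation test gave p = 0.333, the smallest value that 2 against 2 libraries allow. Leaving out any library kept the difference between 2.05 and 3.47. The pair was taken for its opposite moves in these same libraries. The size of the difference restates that choice and is no separate support for it.

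**Figure D2:**
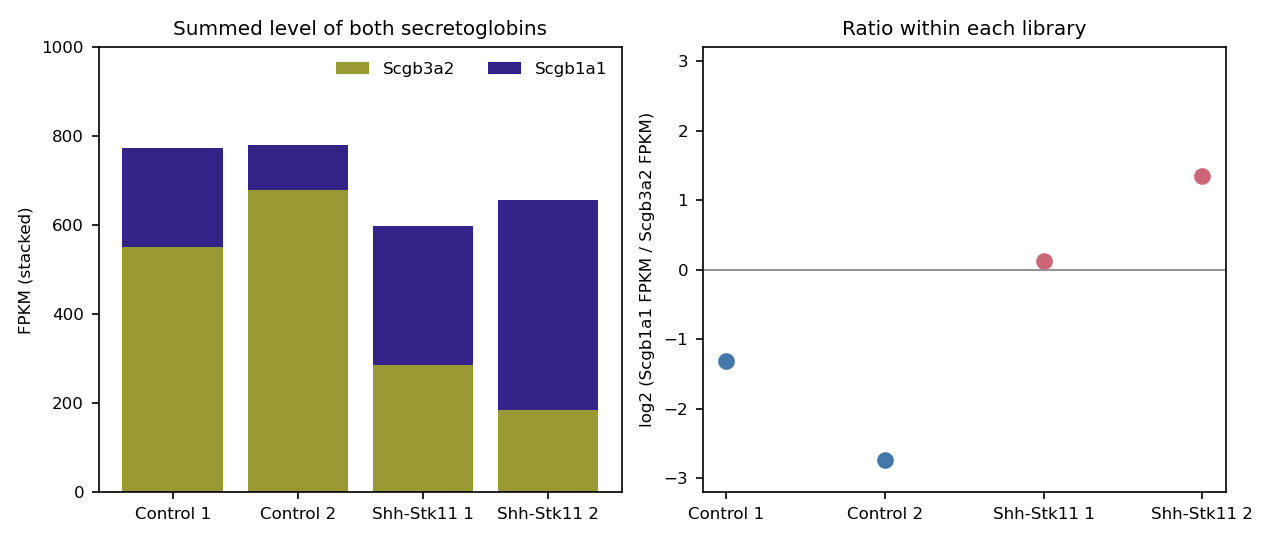
Left, FPKM of Scgb3a2 and Scgb1a1 stacked for each library on a linear axis from 0; right, the log2 ratio of Scgb1a1 to Scgb3a2 in each library, with 0 marking equal levels. The ratio was below 0 in both Controls (-1.32 and -2.73) and above 0 in both Shh-Stk11 libraries (0.13 and 1.35).

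The summed level of both secretoglobins differed less between the genotypes than either gene. It was 773 and 781 FPKM in the Controls and 598 and 656 FPKM in the Shh-Stk11 libraries. Scgb1a1 made up 28.6% and 13.1% of this sum in the Controls and 52.2% and 71.8% in the Shh-Stk11 libraries. Over the 4 libraries the genes ran in exactly opposite order, in that Scgb1a1 was lowest and Scgb3a2 highest in Control 2, followed by Control 1, Shh-Stk11 1 and Shh-Stk11 2. Cldn10 shared the order of Scgb1a1, as did 4.61% of all genes tested, and Upk3a and Gabrp shared that of Scgb3a2, as did 5.98% of all genes tested.

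The remaining secretoglobins were low, and their groups overlapped. Scgb3a1, a secretoglobin of proximal airways, was at 0.762 and 3.37 FPKM in Control lungs, against 1.82 and 0.843 FPKM in Shh-Stk11 lungs, which corresponded to about 11 to 41 reads. The Controls differed 4.42-fold from each other, more than the genotypes did. The log2 fold change of -0.36 (SE 0.660, limma adjusted p 0.842) turned to 0.64 without Control 2 and to 0.15 without Shh-Stk11 2. Scgb1c1 was at 1.95 and 0.966 FPKM in Control lungs, against 0.424 and 1.05 FPKM in Shh-Stk11 lungs. These values were whole multiples of a step and stood for 17 and 7 reads in Control lungs, against 3 and 8 reads after deletion. Their exact Poisson 95% intervals, which cover counting error only, reached from 9.90 to 27.2 reads at 17 reads and from 0.62 to 8.77 reads at 3 reads. With a log2 fold change of -0.93 (SE 0.478, limma adjusted p 0.431), Scgb1c1 did not pass the test, and the value lay between -0.36 without Shh-Stk11 1 and -1.5 without Shh-Stk11 2. In the annotation Scgb1c1 overlaps the antisense gene C330022C24Rik and the protein-coding gene Gm45785, both on the other strand. Of its 50-base words 9.11% are shared with C330022C24Rik, so that part of these few reads could stem from either Scgb1c1 or C330022C24Rik.

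Upk3a had the lowest adjusted p of the 10 genes. It was at 8.06 and 9.01 FPKM in Control lungs, against 3.06 and 2.88 FPKM in Shh-Stk11 lungs, or about 271, 252, 83.6 and 84.6 reads. Replicates differed by at most 1.12-fold, and the groups were separated by a wide gap. The 2.87-fold lower mean corresponded to a log2 fold change of -1.49 (SE 0.147, limma adjusted p 0.00743). The call was lost in 3 of the 15 alternatives. Without Control 2 the log2 fold change was -1.41 and the limma adjusted p 0.0586, while the call was kept without each of the other libraries, where the limma adjusted p was 0.0387 without Control 1, 0.0127 without Shh-Stk11 1 and 0.0112 without Shh-Stk11 2.

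Both receptor genes were lower in both Shh-Stk11 libraries, and Cckar passed the test. Cckar was at 21.3 and 25.1 FPKM in Control lungs, against 13.6 and 13.7 FPKM in Shh-Stk11 lungs. The Shh-Stk11 replicates were nearly equal, and both lay below the lower Control. Cckar fell by 0.76 on the log2 scale (SE 0.132, limma adjusted p 0.0444), but the adjusted p lay between 0.0800 and 0.140 when any library was left out, while the log2 fold change lay between -0.88 and -0.64 and was -0.77 without Shh-Stk11 2. The adjusted p from limma was 0.0800 without Control 1, 0.140 without Control 2, 0.138 without Shh-Stk11 1 and 0.0932 without Shh-Stk11 2. Over all 15 alternatives its call was lost in 11. Gabrp was at 0.896 and 0.905 FPKM in Control lungs, against 0.653 and 0.391 FPKM in Shh-Stk11 lungs, which were whole multiples of a step and amounted to 105, 88, 62 and 40 reads. The groups did not overlap, yet a log2 fold change of -0.72 (SE 0.333) missed the threshold, with a limma adjusted p of 0.385. Leaving out Shh-Stk11 2 gave -0.41, leaving out Shh-Stk11 1 gave -1.03, and a pseudocount of 1 in place of 0.1 gave -0.33.

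None of the genes of club cell metabolism and junctions passed the test in limma. Cyp2f2 was at 71.4 and 60.1 FPKM in Control lungs, against 63.6 and 67.9 FPKM in Shh-Stk11 lungs, with equal means of 65.8 FPKM. Both Shh-Stk11 values lay between the Controls. Its log2 fold change was 0.005 (SE 0.138, limma adjusted p 0.992), with a 95% interval from -0.33 to 0.34, so that a change as large as that of Scgb3a2 lay outside the interval. Cyp2f2 shares 182 of its 1817 words of 50 bases with the antisense gene Gm15883, and whether the counting used strand was not given in the sources used here. Aldh1a7 was at 102 and 123 FPKM in Control lungs, against 130 and 113 FPKM in Shh-Stk11 lungs, and the groups overlapped. Its log2 fold change of 0.11 (SE 0.155, limma adjusted p 0.794) had a 95% interval from -0.26 to 0.48. Aldh1a7 shares 7.49% of its 50-base words with its paralog Aldh1a1, with a Control mean of 35.6 ± 0.470 and a Shh-Stk11 mean of 36.6 ± 1.03 FPKM (SD, n = 2). Cldn10 was at 149 and 138 FPKM in Control lungs, against 169 and 214 FPKM in Shh-Stk11 lungs. Both Shh-Stk11 values exceeded both Controls, and the log2 fold change of 0.41 (SE 0.162) was short of the threshold (limma adjusted p 0.30). It was 0.24 without Shh-Stk11 2, the library with Y-linked transcripts, and 0.24 after scaling to general epithelial genes.

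**Figure D3:**
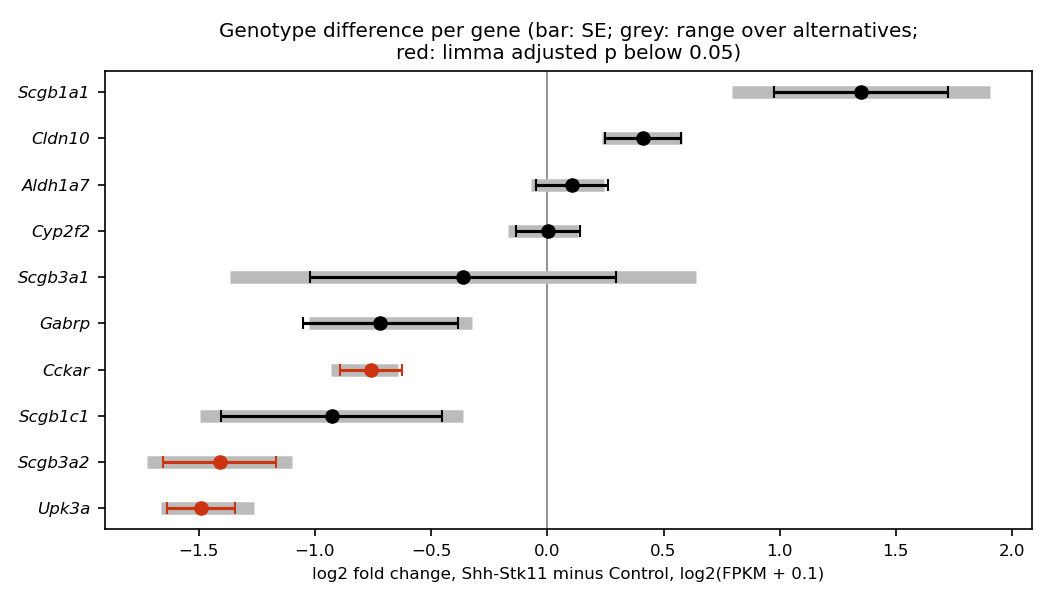
Log2 fold change of each gene (Shh-Stk11 minus Control, horizontal axis, log2(FPKM + 0.1)) with its SE as error bar, red where the limma adjusted p was below 0.05; grey bars span the values over the processing alternatives and left-out libraries. The grey bars of Scgb1a1 and Cldn10 lay above 0, those of Scgb3a2, Upk3a, Cckar, Scgb1c1 and Gabrp below 0, and those of Scgb3a1, Cyp2f2 and Aldh1a7 crossed 0.

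Set against Cyp2f2 or against the epithelial adhesion gene Epcam in the same library, Scgb1a1 and Scgb3a2 kept their opposite directions. Cyp2f2 had equal means in both genotypes, so the ratios to it restate the fold changes above (1.34 and -1.42 on the log2 scale). For Scgb1a1 to Epcam the log2 gap between the Controls (1.43) exceeded the difference between the genotypes (1.19). Scgb3a2 was 7.73 and 11.3 times the level of Cyp2f2 in the Controls and 4.49 and 2.73 times in the Shh-Stk11 libraries. Scgb1a1 was 3.10 and 1.70 times the level of Cyp2f2 in the Controls and 4.90 and 6.94 times in the Shh-Stk11 libraries. Relative to Epcam, Scgb3a2 was at 5.78 and 5.72 in the Controls, nearly the same, and at 2.41 and 1.55 in the Shh-Stk11 libraries. For Scgb1a1 and Epcam the ratios were 2.32 and 0.862 in the Controls and 2.63 and 3.93 in the Shh-Stk11 libraries. The exact permutation p was 0.333 for each of these 4 ratios, the smallest possible. When each library was scaled to 19 general epithelial genes, the median of all genes tested moved by -0.17, the log2 fold change of Scgb1a1 was 1.17 and that of Scgb3a2 -1.59 (limma adjusted p 0.0371).

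The genes closest in pattern differed between the members. Likeness was measured as the Euclidean distance between log2(FPKM + 0.1) values over the 4 libraries, after centring each gene on its mean, among all genes tested. Closest to Scgb1a1 were Aqp5, a water channel in the alveolar type 1 list below (distance 0.0546), Retnla, a secreted resistin-like protein (0.288), and Lrp2, an endocytic receptor (0.309). Aqp5 was at 28.9 and 13.5 FPKM in Control lungs, against 41.1 and 64.8 FPKM in Shh-Stk11 lungs. Closest to Scgb3a2 were Lrrc36 (0.146), 4930451C15Rik (0.166) and 4932425I24Rik (0.187). Upk3a was closest to Lrrc48 (0.0401) and Ccdc65 (0.0641), which encode parts of the axonemal dynein regulatory complex, and to Gm216 (0.124). Lrrc48 was at 15.7 and 16.9 FPKM in Control lungs, against 5.84 and 5.46 FPKM in Shh-Stk11 lungs, a log2 fold change of -1.51 beside the -1.49 of Upk3a. For Cyp2f2, the closest genes were Sykb (0.0147), Pcdhga1 (0.0178) and Clic4 (0.0236).

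Of 22 tested genes of mucus, antimicrobial and other airway secretion, 0 passed the threshold upward and 1 downward, and the median log2 fold change was 0.17. In limma 10 of the 22 had an unadjusted p below 0.05, against 15.2% of all genes. Both Shh-Stk11 libraries lay above both Controls for 9 of the 22 and below them for 5, against 19.2% and 27.6% of all genes. The gene that fell was Nupr1, a stress-induced nuclear protein and itself no secreted product, with 94.9 and 69.3 FPKM in Control lungs, against 36.2 and 38.2 FPKM (log2 fold change -1.12, limma adjusted p 0.0322). Sftpd, a surfactant protein, was at 76.0 and 33.6 FPKM in Control lungs, against 143 and 301 FPKM in Shh-Stk11 lungs, and its log2 fold change of 2.04 missed the threshold (limma adjusted p 0.0853). Agr2, a protein disulfide isomerase of mucus cells, had the lowest log2 fold change of the list, at 2.18 and 4.47 FPKM in Control lungs, against 1.64 and 0.925 FPKM in Shh-Stk11 lungs, and with -1.27 missed the threshold as well (limma adjusted p 0.184). The mucin genes Muc5b and Muc5ac, named like Agr2 after their values were seen, were below the filter and not tested. Muc5b was at 0.0178 and 0.0364 FPKM in Control lungs, against 0.737 and 0.285 FPKM in Shh-Stk11 lungs, and Muc5ac at 0.0537 and 0.0991 FPKM in Control lungs, against 0.289 and 0.188 FPKM in Shh-Stk11 lungs. Of 26 tested genes of xenobiotic metabolism, 0 passed upward and 1 downward, with a median of -0.20. In limma 10 of the 26 had an unadjusted p below 0.05, against 15.2% of all genes. Of the 26, 19 had a negative log2 fold change, and the groups did not overlap for 12 lower and 3 higher genes, against 27.6% and 19.2% of all genes. The gene past the threshold was Cyp2s1, another P450 enzyme, which fell from 11.9 and 10.7 to 6.02 and 5.55 FPKM (log2 fold change -0.95, limma adjusted p 0.0255). Cbr2, a carbonyl reductase of club cells singled out after its values were seen, was at 422 and 286 FPKM in Control lungs, against 738 and 1432 FPKM in Shh-Stk11 lungs, in the library order of Scgb1a1 (log2 fold change 1.56, limma adjusted p 0.0832).

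Among regulators of airway secretory fate, none of 33 tested genes passed the threshold in limma, 6 had an unadjusted p below 0.05 (15.2% of all genes did), and the median log2 fold change was 0.03. The largest differences were those of Foxp2 (0.75, limma adjusted p 0.169) and Sox9 (0.72, limma adjusted p 0.238), transcription factors of the distal lung bud. Nkx2-1, which activates secretoglobin genes, was at 170 and 178 FPKM in Control lungs, against 207 and 196 FPKM in Shh-Stk11 lungs (a log2 difference of 0.21, limma adjusted p 0.520). The 12 Notch pathway genes of this list lay between -0.51 and 0.29, and 0 passed the threshold in limma, with 1 at an unadjusted p below 0.05. That gene, Jag2, a Notch ligand, was at 10.9 and 10.3 FPKM in Control lungs, against 7.39 and 7.50 FPKM in Shh-Stk11 lungs (limma adjusted p 0.108).

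Marker genes of other cell types differed beside these values. Of 31 tested genes of motile cilia, 23 passed the threshold downward and 0 upward, against 1.29% and 0.98% of all genes. The groups did not overlap for 29 lower genes and 1 higher gene, against 27.6% and 19.2% of all genes. The median log2 fold change was -1.62, and the summed level was 446 to 475 FPKM in the Controls and 166 to 172 FPKM in the Shh-Stk11 libraries. The largest falls were those of Lrrc23 (-2.02), Fam183b (-2.01), Ccdc113 (-2.0), Tekt2 (-1.99) and Dnali1 (-1.94). The library order of Scgb3a2 was found for 11 of the 31. The 19 general epithelial genes had a median of 0.16, with 0 past the threshold in limma and 5 at an unadjusted p below 0.05, and their summed level was 1509 to 1575 FPKM in the Controls and 1645 to 1874 FPKM in the Shh-Stk11 libraries. Among the epithelial types, 17 distal and alveolar type 2 genes had a median of -0.18 with 0 past the threshold and a range from -1.45 (Lyz1) to 2.04 (Sftpd). The 12 alveolar type 1 genes had a median of -0.42 with 1 past the threshold, lower (Pdpn). Of these 12, 10 were negative, and the range was from -1.18 (Pdpn) to 1.38 (Aqp5). The 3 tested basal genes had a median of -0.67 with 1 lower (Krt15). The 8 neuroendocrine genes had a median of 0.68 with 0 past the threshold, the largest difference being that of Calca (1.11, limma adjusted p 0.0532). Of the neuroendocrine genes 5 were positive and 3 negative, down to -0.84. The distal and alveolar type 2 sum was 18445 to 20942 FPKM in Control and 10536 to 15508 FPKM in Shh-Stk11 lungs, with Sftpc at 17426 and 15784 FPKM in Control lungs, against 8005 and 12048 FPKM in Shh-Stk11 lungs. Outside the epithelium the medians were -0.19 for 14 mesenchymal, -0.31 for 13 endothelial, -0.56 for 8 red blood cell, 0.08 for 11 immune and -0.94 for 7 heart muscle genes, with 1 gene past the threshold in all (Hba-x, lower). The groups overlapped for all heart muscle genes, whose sum was 126 to 290 FPKM in Control and 62.7 to 164 FPKM in Shh-Stk11 lungs. Lower without overlap were 11 of the 13 endothelial, 7 of the 14 mesenchymal and 6 of the 8 red blood cell genes, against 27.6% of all genes. The summed level of the 7 basal genes was 76.5 to 77.1 FPKM in Control and 48.0 to 50.9 FPKM in Shh-Stk11 lungs, with Krt15 at 39.4 and 39.3 FPKM in Control lungs, against 19.2 and 22.05 FPKM in Shh-Stk11 lungs, while Trp63 reached at most 0.170 and Krt5 at most 0.0758 FPKM in any library. The part of these cell types in the differences of the club cell genes was not tested.

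**Figure D4:**
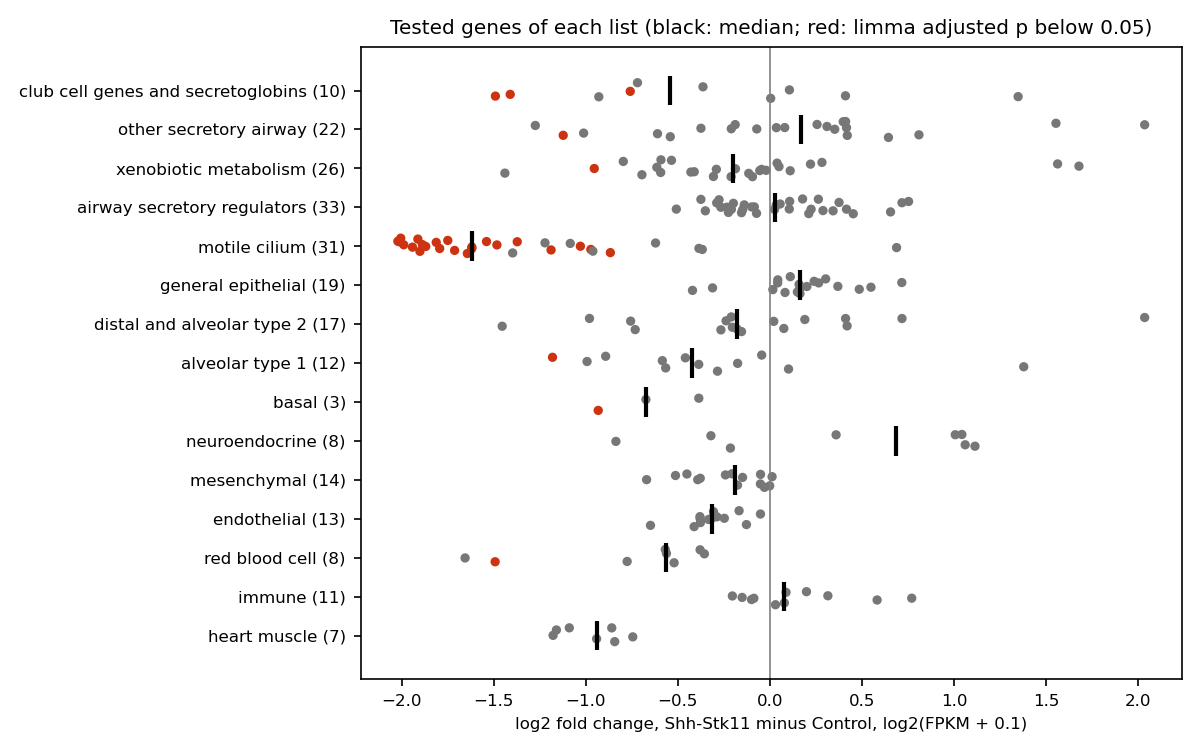
Log2 fold change (horizontal axis, Shh-Stk11 minus Control) of each tested gene in the 10 club cell genes and secretoglobins and in 14 lists of other genes, with the number tested in parentheses, the median as a black bar and genes past the limma threshold in red. The 10 genes ranged from -1.49 to 1.35, while 30 of the 31 motile cilium genes were below 0.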

How the data were processed

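Whole lungs of E16.5 embryos were profiled by RNA sequencing with single-end 50-base reads. The deposited values are FPKM, in 1 table with a column for each library. The submitters' processing notes name TopHat2 2.0.13 and Cufflinks 2.2.1, and the builds GRCm38 and mm9, without their role; annotation and strand setting were not given in the sources used here.

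FPKM are not counts, so limma 3.58.1 in R 4.3.3 was run on log2(FPKM + 0.1) for the 13770 genes whose mean over the libraries reached 0.5 FPKM, with genotype as the only term, eBayes with trend (4.48 prior and 2 residual degrees of freedom), two-sided, and Benjamini-Hochberg adjustment over all genes at 0.05. Reads were estimated from steps of low values: of 1720 genes below 0.3 FPKM, 76.3% were whole multiples (tolerance 0.02) of a step, taken at most 10 times in the lowest library, and 197 of them with a single transcript gave the depth, after taking 210 bases off the length. Read numbers of single genes use the longest GENCODE M21 transcript. The whole multiples given for Scgb1c1 and Gabrp had a tolerance of 0.05 steps and lay near that estimate.

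The members, the lists, the regulators and motifs were chosen with earlier results of these data known. The rule for names took the members, Stk11, from each list up to 5 genes past the threshold or otherwise the 2 largest, a few context genes such as Sftpd, and the 3 genes closest in pattern. The text prints only some of these. Other names, such as Cbr2, were chosen after their values were seen. The labels do not say that replicates came from separate litters, so p-values measure the spread between these libraries. Same-numbered libraries did not deviate together (correlation of deviations -0.11). Tried were 15 alternatives and 1 added later. Length and GC content were known for 13633 of the tested genes.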

Additional observations from a re-analysis of the deposited data

How the results depend on the processing

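Directions of Scgb1a1, Scgb3a2, Upk3a, Cckar, Cldn10, Scgb1c1 and Gabrp were kept under each alternative that tested them. Of the members, 3 passed the threshold as reported, 1 with genes of at least 0.1 FPKM tested, after quantile normalization, after median-ratio scaling, with the length and GC trend removed and with eBayes without a trend, 0 with no filter, and between 0 and 2 with a library left out. With replicate number as a block, 0 members passed, and 6 genes in all were higher and 7 lower. The labels do not say that a number pairs the libraries. With the crossed pairing, added after the data were seen, 4 members, 360 higher and 315 lower genes passed. As reported, 135 genes were higher and 178 lower. There were 20 higher and 41 lower with no filter, 53 higher and 238 lower after scaling to epithelial genes, 81 higher and 114 lower without the length and GC trend, and 110 higher and 90 lower with at least 5 FPKM. Leaving out a library gave 40 to 129 higher and 64 to 190 lower. Reversed signs were seen for Cyp2f2 (-0.17) and Aldh1a7 (-0.069) after scaling to epithelial genes, for Cyp2f2 without Control 2 (-0.12) and without Shh-Stk11 2 (-0.04), for Aldh1a7 without Control 1 (-0.029), and for Scgb3a1 without Control 2 (0.64) and without Shh-Stk11 2 (0.15). With a library left out, the range was -1.37 to 0.64 for Scgb3a1, -0.12 to 0.13 for Cyp2f2 and -0.029 to 0.24 for Aldh1a7. In the lists, genes of airway secretion past the threshold numbered 0 after quantile normalization and 2 after median-ratio or epithelial scaling, against 1. Alveolar type 1 genes numbered 0 after quantile normalization, median-ratio scaling and removal of the length and GC trend, against 1. With epithelial scaling there were 3 xenobiotic, 1 mesenchymal, 1 endothelial and 4 red blood cell genes. The medians of general epithelial (-0.01), airway secretory (-0.01), regulator (-0.15) and immune (-0.09) genes were then below 0, and that of the regulators was -0.06 without the length and GC trend. Epithelial scaling shifts each log2 fold change by about the same amount (-0.17 for the median of all genes) and sets the general epithelial genes near 0, so these sign changes follow from its construction. The cause of the other shifts was not tested. At 3 to 17 reads for Scgb1c1 and about 11 to 41 for Scgb3a1, counting error is part of the spread of these genes; its share was not tested.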
